A study of Mus musculus with 8 samples.

Results

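The EGF receptor family and its ligands are described here across 4 populations of mouse adult fibroblasts (MAFs). The members are the genes of 3 receptors (Egfr, Erbb2 and Erbb3), 6 ligands (Hbegf, Areg, Ereg, Tgfa, Btc and Nrg1) and 1 receptor inhibitor (Errfi1), and they were listed by name. Every probe set that the array annotation gives to a listed gene alone was taken, and probe sets with several symbols were not. Of the 10 genes, 9 had at least 1 probe set under their symbol alone, and together they had 21 of the 45037 probe sets tested. Areg was not analysed here, since no probe set carried its symbol alone. The whole table covered 18193 genes.

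The cells came from the peritoneal fascia of Rb loxP/loxP mice. They had been infected with adenovirus carrying GFP, which leaves Rb intact, or GFP and Cre recombinase, which deletes the floxed part of Rb. A retrovirus then brought p53DD, which acts as a dominant negative on p53, into all 4 populations, which were selected and pooled rather than cloned. GFP Naïve cells were RB-proficient and untreated. Cre Naïve cells were RB-deficient and untreated. The GFP Recurred (RB-proficient) and Cre Recurred (RB-deficient) populations had grown out after CDDP (cisplatin, which crosslinks DNA) for 24 h and recovery in fresh media. With 2 arrays for each population there were 8 in total, and the labels call the pair biological replicates. The age and sex of the mice are not given in the sources used here. The values are log2 signals as deposited, and the median signal of an array was between 5.37 and 5.41. A fold change is given as a difference of log2 means, where 1 means a doubling. Signals of different probe sets depend on their probes, so levels are compared between arrays and not between genes. Differences were tested with limma over all probe sets. To pass the study's thresholds, a probe set had to differ by at least 1.5-fold with an adjusted p under 0.25 (the study asked this of the FDR from SAM). A stricter threshold asks for an adjusted p under 0.05 at the same fold.

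EGFR, ERBB2 and ERBB3 are cell surface receptors that pair up when a ligand binds and signal mainly through the Ras-ERK and PI3 kinase cascades. ERBB2 has no known ligand of its own and acts as a partner, and ERBB3 has little kinase activity and signals through its partner. HB-EGF, amphiregulin, epiregulin, TGF-alpha and betacellulin are made as membrane proteins, are released by proteases of the ADAM family, and bind EGFR, whereas neuregulin 1 binds ERBB3 and ERBB4. ERRFI1, also called MIG6, binds the kinase domain of EGFR and holds it inactive, and its gene is itself induced by growth factors. In fibroblasts the pathway is known as a driver of proliferation and migration.

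The genes lie on several chromosomes, but Ereg and Areg are neighbouring protein-coding genes on mouse chromosome 5, with Epgn (epigen, another EGFR ligand) on one side and Btc on the other. Of the 10 members, 6 had an entry in the RefSeq promoter table (build GRCm38.p6). The 250 bases before the gene start are shown for Egfr, the receptor with the widest spread between arrays, and for Btc, the member with the smallest adjusted p in the comparison of the Cre Recurred with the Cre Naïve cells. Both are written 5′ to 3′ in the direction of the gene, and capitals mark CG dinucleotides, the sites at which DNA can be methylated.
Egfr: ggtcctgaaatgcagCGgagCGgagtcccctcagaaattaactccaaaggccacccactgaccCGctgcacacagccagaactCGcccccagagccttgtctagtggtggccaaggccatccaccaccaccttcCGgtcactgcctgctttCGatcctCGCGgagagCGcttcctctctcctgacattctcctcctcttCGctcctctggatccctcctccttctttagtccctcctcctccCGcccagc
Btc: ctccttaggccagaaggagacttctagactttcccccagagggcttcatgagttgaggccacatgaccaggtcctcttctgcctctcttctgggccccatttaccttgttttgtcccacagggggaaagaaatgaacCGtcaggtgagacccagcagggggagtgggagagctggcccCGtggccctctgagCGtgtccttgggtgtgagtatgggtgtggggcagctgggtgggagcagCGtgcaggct
The Egfr stretch lies at chr11:16751953-16752202 on the plus strand, and the Btc stretch at chr5:91402995-91403244 on the minus strand. Egfr had 11 CG dinucleotides in these 250 bases and 60.8% G and C. Btc had 4 CG dinucleotides at 59.6% G and C. The median of the 32851 promoters in the table was 6 CG dinucleotides and 52.4% G and C, so Egfr lay above and Btc below it in CG dinucleotides and both lay above it in base composition. The GC box GGGCGG, searched on both strands, occurred once (1 match) before Egfr and had 0 matches before Btc, and 32.7% of all promoters held it. The AP-1 letters TGACTCA and the E2F letters TTTCCCGC had 0 matches in both, and 4.5% and 0.9% of all promoters held them. A match describes the letters, and methylation was not measured on these arrays.

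Before the members, the cells were checked against marker lists. Of 12 fibroblast markers, 11 lay above the overall median of 5.39 on every array. The median of the list was between 11.90 and 12.80 on 7 arrays and 10.76 on Cre Recurred replicate 1. The median of 12 epithelial markers was between 4.37 and 4.55 on all arrays. Cdh1, the gene of E-cadherin, had a signal of 2.69 to 2.85, whereas Epcam had 5.65 to 6.60 and Krt19 reached 7.23 on Cre Recurred replicate 1. The medians of 6 endothelial and 7 leukocyte markers were 3.29 to 3.86 and 4.08 to 4.68, with Csf1r, a receptor gene of the macrophage lineage, the brightest of the leukocyte list at 6.37 to 8.19 and Ptprc, the gene of CD45, at 2.95 to 3.19. Between Cre Recurred and GFP Recurred cells, 11 of the 12 fibroblast markers had a lower mean in the Cre Recurred cells, and the log2 median of the list was -0.76, against 0.04 over all genes. Fap, Dcn and Prrx1 (log2 fold changes -2.39, -1.60 and -1.05) were lower and Thy1 (0.91) was higher at the study's thresholds. Of 9 mesothelial markers 2 were higher, Msln (1.71) and Krt7 (1.02), and 1 was lower, Bnc1 (-5.05), and among the epithelial markers Krt19 (1.97) was higher. In this comparison 11.4% of all genes passed. Some of these markers also differed between untreated replicates. Bnc1 was 7.76 and 3.94 on the Cre Naïve arrays and 2.76 and 2.96 on the Cre Recurred arrays. Krt19 was 4.48 and 6.11 on the Cre Naïve arrays and 7.23 and 6.26 on the Cre Recurred arrays. Msln and Krt7 were closer between the Cre Naïve replicates, at 6.25 and 6.15 and at 4.04 and 3.87. The part of the markers in the results on the members was not tested. In a population of cells, fewer cells of a type and less RNA per cell cannot be told apart.

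The receptors differed most in how much they varied. At its main probe set, the one of 7 with the highest mean signal, Egfr gave 9.60 and 8.38 on the GFP Naïve arrays, 9.61 and 8.71 on the Cre Naïve arrays, 8.82 and 9.18 on the GFP Recurred arrays, and 7.57 and 8.47 on the Cre Recurred arrays. The lowest signal was that of Cre Recurred replicate 1, and Cre Recurred replicate 2 lay above GFP Naïve replicate 2, so these groups overlap. The Cre Recurred arrays were both below the Cre Naïve and both below the GFP Recurred arrays. The log2 fold change was -1.14 (SE 0.49, n = 2 arrays per group, 95% interval -2.30 to 0.02, adjusted p = 0.422 from limma) against Cre Naïve cells. Against GFP Recurred cells it was -0.98 (SE 0.49, 95% interval -2.14 to 0.18, adjusted p = 0.378 from limma). Both intervals include 0, and the replicates of the GFP Naïve cells alone were 1.22 apart. The first and the second brightest Egfr probe sets differed in the same direction, the second by -0.93 and -0.76 in these comparisons. Of the other 5, none reached 1.5-fold in any comparison, and 3 of them stayed between 2.54 and 5.48 on all arrays. Erbb2, with 1 probe set, gave 7.55 and 7.60, 7.71 and 7.95, 7.82 and 7.69, and 7.54 and 7.75 in the same order of populations. Its 8 arrays lay within 0.42, and its 4 log2 fold changes were between -0.19 and 0.26. The 95% interval of Cre Recurred against Cre Naïve cells, -0.53 to 0.16, leaves out a difference of 1.5-fold, whereas that of Cre Naïve against GFP Naïve cells, -0.08 to 0.60, and that of the interaction, -0.85 to 0.11, do not. Erbb3 had low signals at its main probe set, 4.13 and 4.19, 4.31 and 4.32, 4.20 and 4.14, and 4.60 and 4.42. The Cre Recurred arrays were the highest pair, with a log2 fold change of 0.34 against GFP Recurred cells (SE 0.12, adjusted p = 0.220 from limma), which is under 1.5-fold. At the second Erbb3 probe set the Cre Recurred arrays gave 4.13 and 3.30 and overlapped the GFP Recurred arrays, at 3.53 and 3.53. The log2 fold change there was 0.19 (adjusted p = 0.813 from limma). Of the family's other receptor, Erbb4, the signal was 2.60 to 3.07 on the 8 arrays.

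**Figure D1:**
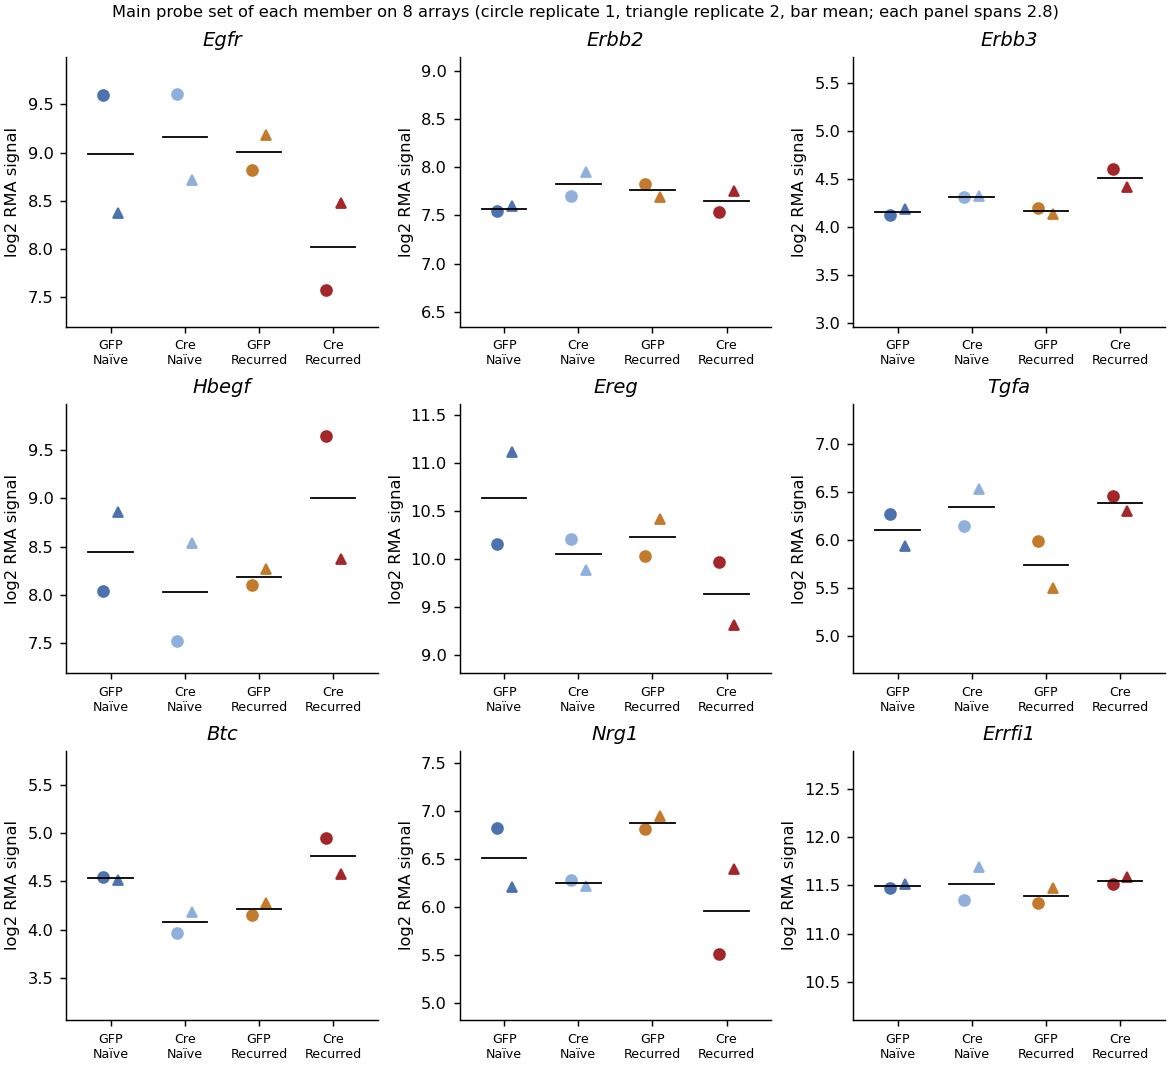
Log2 RMA signal (vertical axis) of the main probe set of each of the 9 measured members in the 4 populations (horizontal axis). Circles are replicate 1, triangles replicate 2 and bars the mean of the pair, and every panel spans the same 2.8 units; over the 8 arrays Egfr, Hbegf and Ereg have ranges of 2.04, 2.13 and 1.80, with replicates up to 1.22, 1.28 and 0.96 apart, whereas Errfi1 stays within 0.38.

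Among the ligands, Hbegf had the widest range of all members. Hbegf, the gene of heparin-binding EGF-like growth factor, gave 8.03 and 8.86 on the GFP Naïve arrays, 7.52 and 8.54 on the Cre Naïve arrays, 8.10 and 8.26 on the GFP Recurred arrays, and 9.65 and 8.37 on the Cre Recurred arrays. A single array, Cre Recurred replicate 1, stood above all others, and its replicate was 1.28 lower and below both GFP Naïve replicate 2 and Cre Naïve replicate 2. The log2 fold change against Cre Naïve cells was 0.98 (SE 0.50, 95% interval -0.20 to 2.16, adjusted p = 0.476 from limma). Against GFP Recurred cells it was 0.83 (SE 0.50, 95% interval -0.35 to 2.01, adjusted p = 0.472 from limma). Leaving out Cre Recurred replicate 1 gave 0.34 and 0.19. Leaving out its replicate gave 1.62 and 1.46. Such fits keep a single Cre Recurred array, so only log2 fold changes are read. The other Hbegf probe set gave 1.18 and 0.99.

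The Egfr and Hbegf signals were ordered oppositely within populations. In 3 of the 4 populations the array with more Egfr signal had less Hbegf signal, the exception being the GFP Recurred cells. The order is seen in the main probe sets, and with 2 arrays in a population it is given as a description.

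**Figure D2:**
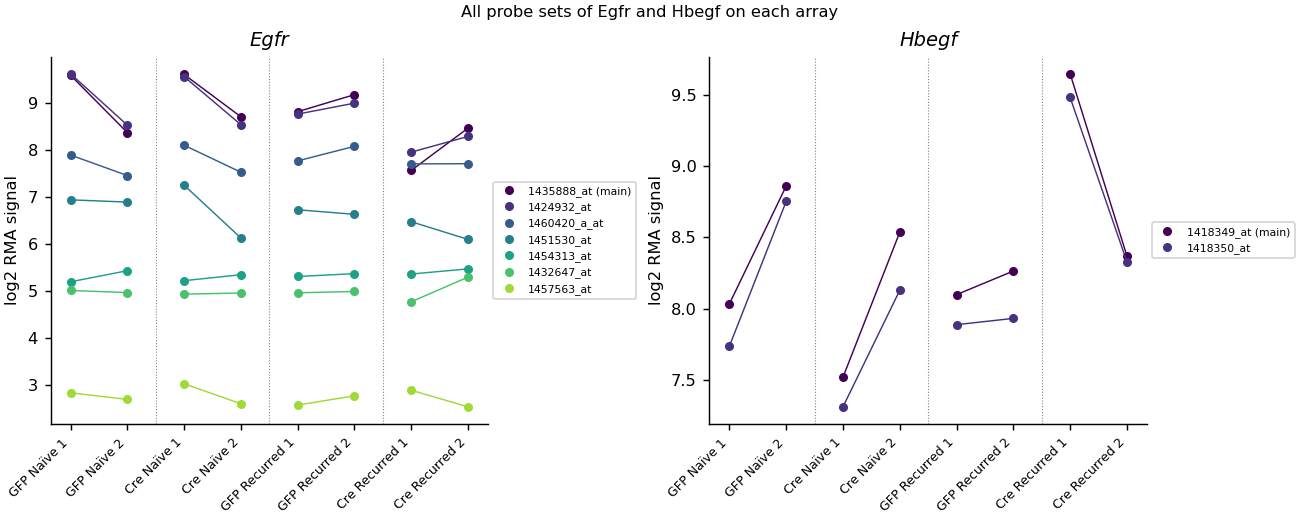
Log2 RMA signal (vertical axis) of all 7 Egfr probe sets and both Hbegf probe sets on each of the 8 arrays (horizontal axis), with thin lines joining the 2 replicates of a population. The pair of bright Egfr probe sets and the pair of Hbegf probe sets each move together from array to array, and Cre Recurred replicate 1 is lowest for the main Egfr probe set at 7.57 and highest for the main Hbegf probe set at 9.65.

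Ereg, the gene of epiregulin, gave 10.15 and 11.11 on the GFP Naïve arrays, 10.21 and 9.89 on the Cre Naïve arrays, 10.03 and 10.42 on the GFP Recurred arrays, and 9.97 and 9.31 on the Cre Recurred arrays. GFP Naïve replicate 2 was the highest and Cre Recurred replicate 2 the lowest, and both Cre Recurred arrays lay below both GFP Recurred arrays. The log2 fold change between these recurred cells was -0.59 (SE 0.35, 95% interval -1.42 to 0.25, adjusted p = 0.472 from limma). Tgfa, the gene of TGF-alpha, gave 6.27 and 5.93 on the GFP Naïve arrays, 6.15 and 6.53 on the Cre Naïve arrays, 5.99 and 5.50 on the GFP Recurred arrays, and 6.46 and 6.30 on the Cre Recurred arrays. Both Cre Recurred arrays were above both GFP Recurred arrays, and GFP Recurred replicate 2 was the lowest of all. Tgfa was higher in Cre Recurred than in GFP Recurred cells by a log2 fold change of 0.64 (SE 0.22, 95% interval 0.11 to 1.16, adjusted p = 0.212 from limma), which passed the study's thresholds. The other Tgfa probe sets, with signals of 4.50 to 5.22, had log2 fold changes of -0.05 and 0.11. Against the Cre Naïve cells the main probe set differed by 0.04.

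Btc, the gene of betacellulin, had low signals at its main probe set. It gave 4.54 and 4.52 on the GFP Naïve arrays, 3.97 and 4.18 on the Cre Naïve arrays, 4.15 and 4.28 on the GFP Recurred arrays, and 4.95 and 4.58 on the Cre Recurred arrays. The Cre Recurred arrays were the highest pair, and the Cre Naïve and GFP Recurred arrays overlapped below the GFP Naïve arrays. The log2 fold change was 0.69 against Cre Naïve cells (SE 0.16, 95% interval 0.31 to 1.07, adjusted p = 0.261 from limma), just outside the study's threshold. Against GFP Recurred cells it was 0.55 (SE 0.16, adjusted p = 0.151 from limma), just under 1.5-fold. The second Btc probe set, at 2.59 to 3.49, gave -0.14 and -0.03 in these comparisons. Without Cre Naïve replicate 2 or without Cre Recurred replicate 2 the first difference was 0.80 and 0.88. Without the other replicate of either population it was 0.59 and 0.51. These fits keep a single array in that population, so only log2 fold changes are read. Over the alternatives that keep all arrays of both populations, its adjusted p from limma ran from 0.247 to 0.586.

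Nrg1, the gene of neuregulin 1, gave 6.82 and 6.21 on the GFP Naïve arrays, 6.28 and 6.22 on the Cre Naïve arrays, 6.82 and 6.94 on the GFP Recurred arrays, and 5.51 and 6.40 on the Cre Recurred arrays. The GFP Recurred arrays both lay above the Cre Recurred arrays, whereas the Cre Recurred and Cre Naïve arrays overlapped. Nrg1 was lower in Cre Recurred than in GFP Recurred cells by a log2 fold change of -0.92 (SE 0.31, 95% interval -1.65 to -0.19, adjusted p = 0.199 from limma), and it passed the study's thresholds. Errfi1 gave 11.48 and 11.52, 11.34 and 11.69, 11.31 and 11.48, and 11.51 and 11.58 in the order of populations used above. Its 8 arrays lay within 0.38, and all 4 log2 fold changes were between -0.10 and 0.15. The 95% interval between the recurred populations was -0.20 to 0.51 and leaves out a difference of 1.5-fold. The other Errfi1 probe set, at 9.36 to 10.05, had 95% intervals from -0.04 to 0.98 between these populations and did not leave it out.

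The members were next read against the whole array, comparison by comparison. At the stricter threshold 0 member probe sets passed in any comparison, against 0% of all probe sets in the first 2 comparisons below and in the interaction, 0.0533% in the third and 0.722% in the fourth. The question of the first comparison is what loss of RB does in untreated cells. Between Cre Naïve and GFP Naïve cells 0 of 21 member probe sets passed the study's thresholds, as did 0% of all probe sets. None of the 21 reached 1.5-fold, against 2.91% of all, 1 had an unadjusted p under 0.05 (Btc), against 2.57% of all, and 5 did not overlap between the groups, against 27.3% of all. The largest main difference was that of Ereg, -0.58 with a 95% interval of -1.42 to 0.25. The second comparison, of GFP Recurred with GFP Naïve cells, asks what remains after CDDP in RB-proficient cells. There 0 member probe sets passed (0.0133% of all), 0 reached 1.5-fold (4.41% of all), 0 had an unadjusted p under 0.05 (5.52% of all) and 5 did not overlap (38.4% of all). The medians of the 21 log2 fold changes in these comparisons were -0.04 and -0.09.

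**Figure D3:**
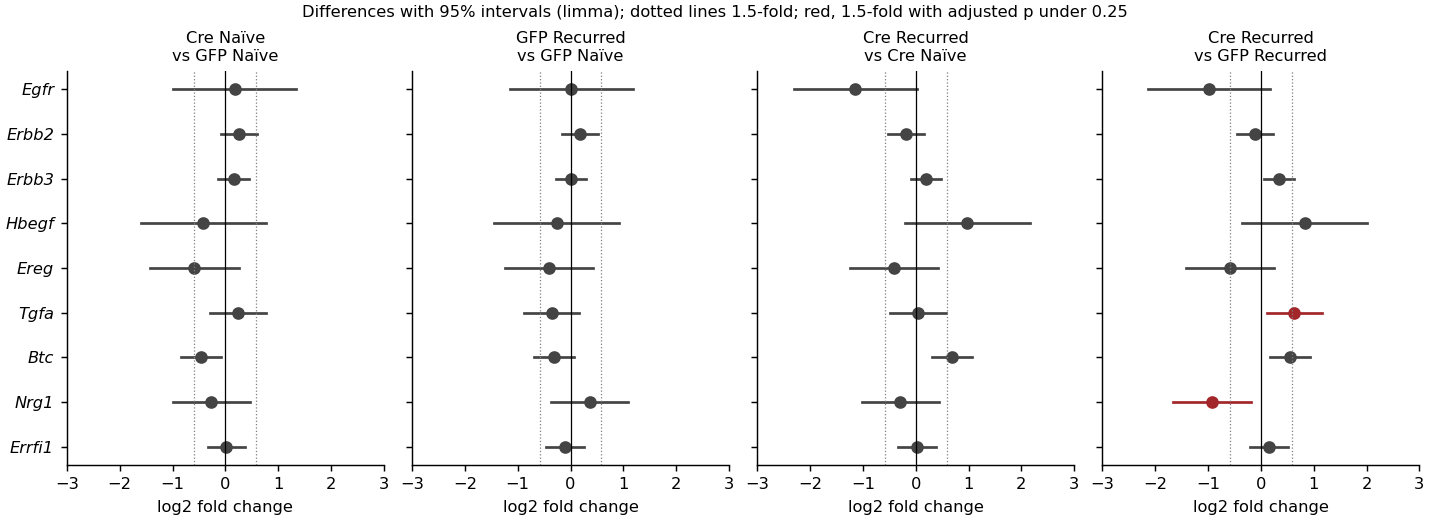
Log2 fold change (horizontal axis) of the main probe set of each member (vertical axis) in the 4 comparisons, with points for the estimate, lines for the 95% interval from limma and dotted lines at 1.5-fold. Red marks Tgfa at 0.64 and Nrg1 at -0.92, which passed the study's thresholds in the comparison of the recurred populations, and the lines of Egfr and Hbegf are the longest.

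The third comparison asks what remains after CDDP in RB-deficient cells. Between Cre Recurred and Cre Naïve cells 0 member probe sets passed the study's thresholds (1.16% of all), and the smallest adjusted p was 0.261, for Btc. Of the 21, 3 were higher by 1.5-fold or more (both of Hbegf and the brighter of Btc) and 2 were lower (the brightest pair of Egfr), which is 5 of 21 against 7.71% of all probe sets. An unadjusted p under 0.05 was found for 2 (12% of all), and 8 did not overlap (43.5% of all). The fourth comparison sets RB-deficient against RB-proficient cells after recurrence, and it shares the Cre Recurred arrays with the third. Here 2 member probe sets passed, Tgfa higher and Nrg1 lower, against 8.85% of all, a count near the background. A difference of 1.5-fold or more was seen in 7 (12% of all), of which 3 were higher (Tgfa and both of Hbegf) and 4 lower (a pair of Egfr, Ereg and Nrg1). An unadjusted p under 0.05 was found for 4 (16.8% of all), and 13 did not overlap (51.8% of all). The log2 fold changes of the 5 measured ligands ran from -0.92 to 0.83, with a median of 0.55 against 0.04 over all genes.

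The interaction of RB status with recurrence asks whether the difference between recurred and naïve cells depends on RB. In it 0 member probe sets passed (0.4% of all), 7 reached 1.5-fold (15.3% of all) and 1 had an unadjusted p under 0.05 (10.3% of all). The values at the main probe sets were 1.25 for Hbegf (95% interval -0.42 to 2.91, adjusted p = 0.576 from limma), 1.01 for Btc (0.47 to 1.55, adjusted p = 0.315), -1.16 for Egfr (-2.79 to 0.48, adjusted p = 0.596) and -0.66 for Nrg1 (-1.69 to 0.38, adjusted p = 0.637). Without Cre Recurred replicate 1 or 2 the value was 0.61 or 1.88 for Hbegf and -0.21 or -1.10 for Nrg1. For Egfr it was -1.77 or -0.55 without GFP Naïve replicate 1 or 2. Of the 7 the remaining 3 were second probe sets of Egfr (-0.73), Hbegf (1.52) and Errfi1 (0.64). For Btc the difference between recurred and naïve cells was -0.32 with RB and 0.69 without RB.

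Both members that passed were also fitted with each of the 4 recurred arrays left out. Such a fit keeps a single array in that population and changes calls over the whole array, so only log2 fold changes are read. For Tgfa the log2 fold change was 0.89 and 0.39 when the first or the second GFP Recurred array was left out. It was 0.56 and 0.71 when the first or the second Cre Recurred array was. Nrg1 had -0.99, -0.86 and -0.48 without the first 3 of these arrays. Without the last, Cre Recurred replicate 2, it had -1.37. For both genes the recurred populations do not overlap, so leaving out 1 array cannot reverse the direction.

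**Figure D4:**
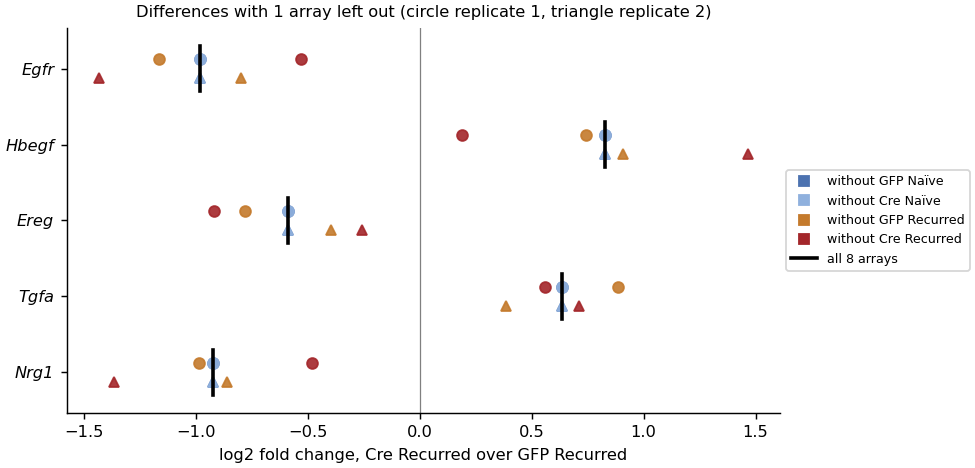
Log2 fold change between Cre Recurred and GFP Recurred cells (horizontal axis) for the 5 members with a difference of 1.5-fold or more (vertical axis), with all 8 arrays (black bar) and with 1 array left out (circle, replicate 1; triangle, replicate 2; colour, population). Leaving out a naïve array does not move the difference, so those points lie on the bar and on each other; Hbegf runs from 0.19 to 1.46 and Egfr from -1.43 to -0.53, according to which Cre Recurred array is left out.

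The other genes of the pathway were taken from 5 lists with 61 genes, of which 55 had a probe set under their symbol alone. In the comparisons of Cre Naïve with GFP Naïve, GFP Recurred with GFP Naïve and Cre Recurred with Cre Naïve cells, 0 of the 55 passed the study's thresholds, against 0, 3 and 301 of 18193 genes. Between Cre Recurred and GFP Recurred cells 11 passed, 3 higher and 8 lower, against 11.4% of all genes, and the median log2 fold change was 0.02 against 0.04 over all genes. Of the 55, 25.5% differed by 1.5-fold or more in this comparison and 15% of all genes did. In the interaction 0 of the 55 passed, against 0.539% of all genes.

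The list of proteins that release or restrain ligands had 3 of 8 genes lower and 0 higher in Cre Recurred than in GFP Recurred cells. Of all genes, 11.4% passed in either direction. Timp3, the gene of an inhibitor of metalloproteinases, was lower and just inside the stricter threshold. Its signals were 11.19 and 11.17 on the GFP Naïve arrays, 10.75 and 10.74 on the Cre Naïve arrays, 10.97 and 11.58 on the GFP Recurred arrays, and 9.46 and 9.99 on the Cre Recurred arrays. The log2 fold change was -1.55 (SE 0.24, n = 2 arrays per group, adjusted p = 0.0496 from limma), and all 4 Timp3 probe sets were lower and passed the study's thresholds. The stricter call was lost with a replicate block (adjusted p = 0.0547), the compared arrays alone (0.0522) and cyclic loess (0.0508, all from limma). Calls in fits with 1 array left out change over the whole array and are not read. In those fits Timp3 had log2 fold changes from -1.86 to -1.24. Against Cre Naïve cells its log2 fold change was -1.02 (adjusted p = 0.274 from limma). Adam12 and Adam19, of the metalloprotease family, were lower by log2 fold changes of -1.12 and -0.82 (adjusted p = 0.248 and 0.138 from limma), and Adam12 was 7.91 and 9.15 on the GFP Recurred arrays, a gap wider than the difference itself. The Adam12 call was lost with a replicate block (adjusted p = 0.284), a trended and robust prior (0.252) and without suffixes of shared probes (0.251, all from limma). Adam12 had -0.50 and Adam19 -0.47 without GFP Recurred replicate 2. Adam17 and Adam10, the main sheddases of these ligands, gave 9.17 and 9.19 and 10.49 and 10.80 on the GFP Recurred arrays against 8.84 and 9.06 and 10.13 and 10.34 on the Cre Recurred arrays, and did not pass.

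The list of receptor turnover and feedback inhibitors had 2 of 16 genes higher and 4 lower between the recurred populations. The share of all genes that passed in either direction was 11.4%. Spry1 and Spry2, genes of Sprouty proteins that restrain signalling from receptor tyrosine kinases to ERK, were lower. Spry1 gave 8.73 and 8.71 on the GFP Recurred arrays and 6.69 and 6.73 on the Cre Recurred arrays, and Cre Naïve replicate 2 was also low at 7.27 against 8.91 in its replicate. The log2 fold change was -2.01 (SE 0.48, adjusted p = 0.104 from limma). Spry2 gave 9.60 and 9.63 against 8.50 and 7.95, with -1.39 (SE 0.36, adjusted p = 0.118 from limma), and Cre Naïve replicate 2 was low for it too, at 8.55 against 9.70. Its second probe set had -0.28. Spry4, of the same family, had 0.18 (adjusted p = 0.775 from limma). Spred1, a Sprouty-related inhibitor of Raf activation, was lower by a log2 fold change of -0.71 (adjusted p = 0.0737 from limma), with 7 of its 8 probe sets lower. Lrig1, whose protein promotes loss of ERBB receptors from the cell surface, was lower by -0.82 (adjusted p = 0.217 from limma), with 1 of its 3 probe sets in the opposite direction, and it did not pass with a replicate block (adjusted p = 0.254 from limma).

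Dusp4 and Dusp5, genes of nuclear phosphatases that inactivate ERK and are themselves induced by it, were higher. Dusp4 gave 8.46 and 8.01 on the GFP Recurred arrays and 10.67 and 8.93 on the Cre Recurred arrays, with a log2 fold change of 1.56 (SE 0.53, adjusted p = 0.2 from limma). The naïve arrays lay between, at 9.30 and 9.30 (GFP Naïve) and 8.50 and 9.21 (Cre Naïve), and overlapped the Cre Recurred arrays. Dusp5 gave 7.10 and 7.04 against 9.46 and 8.07, with 1.70 (SE 0.53, adjusted p = 0.172 from limma), and Cre Naïve replicate 2 was 8.03. Without Cre Recurred replicate 1 the log2 fold changes of Dusp4 and Dusp5 were 0.69 and 1.003, and without Cre Recurred replicate 2 they were 2.44 and 2.39. Dusp6, a cytoplasmic ERK phosphatase, had 0.73 (adjusted p = 0.419 from limma). As for Hbegf, Cre Recurred replicate 1 was the highest array for both Dusp4 and Dusp5.

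Of 14 measured ERK response genes 1 passed and was higher, where 11.4% of all genes passed in either direction. Etv4, a transcription factor gene of the ETS family, gave 8.35 and 8.06 on the GFP Recurred arrays and 9.85 and 8.95 on the Cre Recurred arrays, with a log2 fold change of 1.19 (SE 0.31, adjusted p = 0.124 from limma). It was 0.74 with Cre Recurred replicate 1 left out and 1.64 with its replicate left out. Fos, Egr1 and Myc, which growth factors induce rapidly, had -0.52, 0.08 and 0.32, and Etv5 had -0.46 (adjusted p = 0.628, 0.969, 0.677 and 0.288 from limma). Ccnd1, the gene of cyclin D1, had -0.64 between the naïve populations (adjusted p = 0.997) and 0.67 between Cre Recurred and Cre Naïve cells (adjusted p = 0.364 from limma). Of 11 measured genes of the adaptors and the Ras-ERK cascade 1 passed, against the same 11.4% of all genes. Braf, the gene of a Raf kinase, was lower by -0.68 (adjusted p = 0.122 from limma), and all 9 of its probe sets were lower, 2 of them past the thresholds. The 6 other receptors and ligands of the family had list medians of 3.54 to 3.86 on the arrays and 0 passed.

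**Figure D5:**
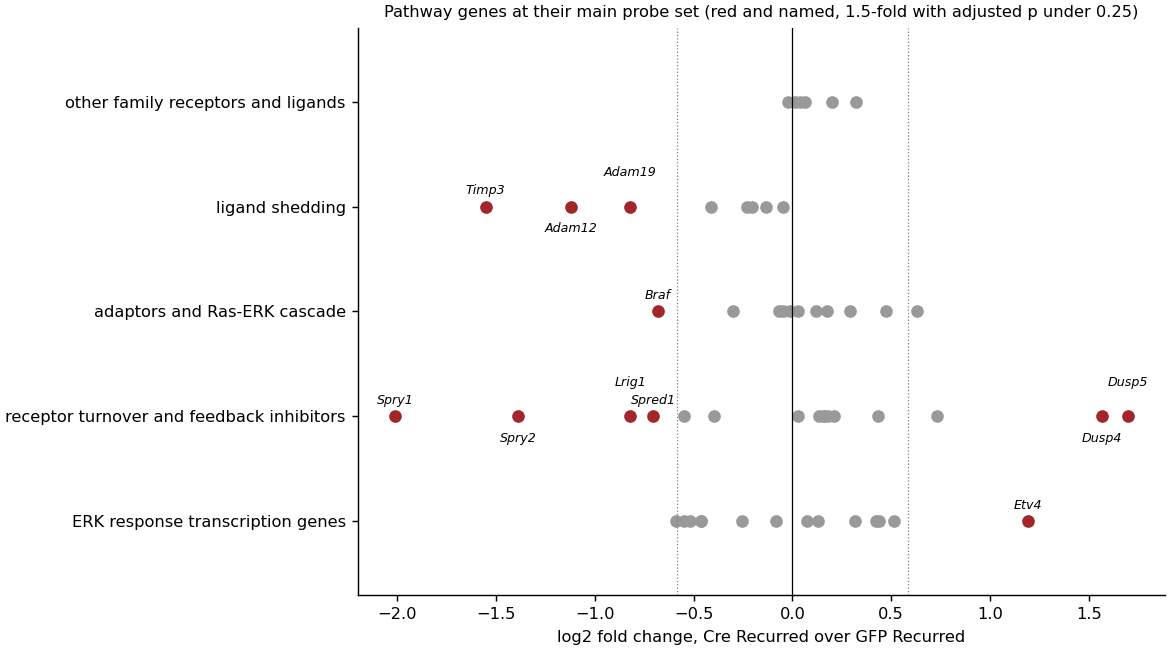
Log2 fold change between Cre Recurred and GFP Recurred cells (horizontal axis) of the 55 measured pathway genes, 1 point per gene at its main probe set, in the 5 lists (vertical axis). Dotted lines mark 1.5-fold, and red named points passed the study's thresholds; 8 of the 11 lie to the left, from Spry1 at -2.01 to Braf at -0.68, and 3 to the right, from Etv4 at 1.19 to Dusp5 at 1.70.

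A fit without 1 recurred array keeps a single array in that population, and calls then change over the whole array. Such counts are not read as a result about the pathway genes. The recurred arrays do not overlap for any of the 11 genes, so leaving out 1 array cannot reverse a direction, and only sizes are read. The log2 fold change ran from -2.03 to -1.99 for Spry1, from -1.86 to -1.24 for Timp3 and from -1.74 to -0.50 for Adam12. For Dusp4 it ran from 0.69 to 2.44.

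The genes whose signals followed a member most closely were taken over the 8 arrays, among genes whose main probe set varied by at least 1 on the log2 scale. For Hbegf, the member with the widest range, they were Wwc1 (Pearson r = 0.97), Spdye4a, Epha2, Bard1 and Itgb7 (0.95 each), of 3345 genes compared. For Errfi1 they were Unc5b and Manea (0.97 each), Smad7 (0.96), Creb5 (0.95) and Id2 (0.94), of 3346 genes compared. Errfi1 itself varied by 0.38, so its pattern is one of small differences. The arrays share their populations and Cre Recurred replicate 1 is the extreme for Hbegf, so these values are descriptions of 8 arrays with no p.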

How the data were processed

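RNA from 4 populations of p53DD MAFs was hybridized to Affymetrix mouse genome arrays, 2 per population. The log2 signals that the authors deposited are Robust Multichip Average (RMA) values, background-corrected, quantile-normalized and summarised per probe set, and were used unaltered for all 8 arrays.

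Of 45101 probe sets, 64 controls were left out, and 45037 were tested. By the array annotation, 34945 had 1 gene symbol, 932 several and 9160 none, and only those with 1 symbol were assigned to genes. A gene's main probe set is the one with the highest mean. limma 3.58.1 in R 4.3.3 was fitted with 1 mean per population (residual df 4, prior df 3.07, prior SD 0.166), and p values were adjusted by Benjamini-Hochberg over all probe sets tested. The study called changes with SAM, which was not run here because it regroups samples. Its thresholds were kept. The methods state at least 2 independently generated populations. An exact two-sided permutation test of 2 arrays against 2 cannot go below p = 0.333, and the number of arrays limits the precision.

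Named were all members, with the log2 fold change given for those at 1.5-fold or past a threshold. Pathway and marker genes past the study's thresholds between the recurred populations were named too. Up to 3 pathway genes per list and comparison at 1.5-fold were planned, and only some of these are given. Egr2, Fosl2, Nras and Map2k2 were left out, as were the values of pathway genes in the interaction. Spry4, Dusp6, Adam10, Adam17, Erbb4, Cdh1, Epcam, Csf1r, Ptprc, Fos, Egr1, Myc and Etv5 were named after their values were seen. The members and lists were chosen with earlier results of these data known.

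Alternatives were a trended and robust prior, a replicate block, a fit of only the arrays compared, median centring, cyclic loess, the 22518 brighter probe sets, the 40508 without suffixes of shared probes, and each array left out. Their counts of pathway genes were added after the data were seen. Deviations of same-numbered arrays from their population means had correlations of -0.26 to 0.31 across probe sets. The highest, 0.31, was between the GFP Recurred and Cre Recurred cells. These values do not settle whether same-numbered arrays belong together, and the main fit treated the arrays as unpaired. Promoters came from RefSeq (GRCm38.p6). Figures were drawn with Python 3.11.15 and matplotlib 3.10.9.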

Additional observations from a re-analysis of the deposited data

Results flagged for a closer look

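Btc stood out in the interaction of RB status with recurrence. Both GFP Recurred arrays were below both GFP Naïve arrays, and both Cre Recurred arrays were above both Cre Naïve arrays. The interaction had a log2 value of 1.01 (SE 0.23, 2 arrays per population, adjusted p = 0.315 from limma), which did not pass the study's threshold of an adjusted p under 0.25, and 10.3% of all probe sets had an unadjusted p under 0.05 in it. The value was 0.82 to 1.20 with any 1 array of the Cre Naïve, GFP Recurred or Cre Recurred cells left out. The second Btc probe set had 0.17 (95% interval -0.70 to 1.04).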

How the results depend on the processing

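The 12 member differences of 1.5-fold or more kept their direction under the alternatives that can move a difference of means. These are median centring, cyclic loess and leaving out an array of a population in the comparison. The other alternatives change the spread or the probe sets tested and leave the value as it was. Where the compared arrays do not overlap, leaving 1 out cannot reverse the direction either. Btc has no value without dim probe sets, nor the interaction with the compared arrays alone. The count of member probe sets passing between Cre Recurred and GFP Recurred cells, 2 with all 8 arrays, was 5 when the compared arrays alone were fitted (a pair of Egfr, 1 of Hbegf, Tgfa and Nrg1; 4838 of all probe sets against 3988) and 1 after cyclic loess, where Tgfa had 0.59 with an adjusted p of 0.255. With 1 array left out it ran from 0 to 4, while all probe sets passing ran from 42 to 4985. Between Cre Recurred and Cre Naïve cells the count was 0, 1 (Btc, adjusted p = 0.247) with a trended and robust prior, and 0 to 4 with 1 array left out (all probe sets 524, and 19 to 2895), and in the interaction it was 0 and ran from 0 to 2 (180, and 0 to 2953). The counts of 4 came without Cre Naïve replicate 2 or without Cre Recurred replicate 2, and the last-named array left out also gave the 4 between the recurred cells. Among the pathway genes 11 passed between the recurred cells and 0 to 12 with 1 array left out. The replicate block gave 2 member probe sets and 9 pathway genes in this comparison and changed no call of a member. In the other comparisons it gave 0. Fits that leave an array out assume that the single array remaining in that population varies as the other populations do. With 2 arrays per population, differences under the intervals given were not detectable.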
